A study of Mus musculus with 8 samples.

Results

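Lateral plate mesoderm was the most frequent epiblast-derived cell type among Eomes-KO cells of the chimeric embryos and a minor one among the host cells. The type comprises the cells that carry the label Lateral_plate_mesoderm in the combined annotation of the deposited cell table, 2707 of 28723 cells, of which 1919 were Eomes-KO and 788 were WT host. The study asked how cells that lack the T-box transcription factor Eomes contribute to mesoderm next to wild-type cells of the same embryos. Wild-type C57BL/6 blastocysts were injected with male tdTomato+ embryonic stem cells (ESC) in which CRISPR had deleted the Eomes gene from intron 1 to intron 5, with 1 of 4 independent clones per pool of embryos. Chimeras were collected at around E8.5 and sorted on the red fluorescence of tdTomato, which marks the injected cells and their descendants, into a tdTomato+ Eomes-KO and a tdTomato− WT host fraction. Each of the 8 libraries, 4 per genotype, was profiled by droplet single-cell RNA-seq.

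The lateral plate is the outermost strip of the mesoderm of the trunk. It splits into a splanchnic layer, which supplies heart and gut wall, and a somatic layer, which supplies body wall and limb, and it is continuous at its edge with the extra-embryonic mesoderm of amnion, yolk sac and allantois. Medially it borders the intermediate mesoderm, the source of kidney and gonad. Eomes acts in the primitive streak, where it is required for cardiac mesoderm and definitive endoderm.

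The Eomes-KO libraries held 602, 1153, 3346 and 3465 cells and the WT host libraries 2414, 3791, 5819 and 8133, and libraries are named here by these numbers. Summed UMIs ran from 19370600 to 57481950 in Eomes-KO and from 20512404 to 66414390 in WT host libraries. No library of injected WT ESC was analysed, so loss of Eomes and origin from injected ESC cannot be told apart, and each Eomes-KO library stands for 1 clone. The table holds labels and per-cell quality measures but no gene counts. The markers Foxf1, Hand2, Hand1 and Gata4 could therefore not be read, and the label was checked only against the other annotations in the table. A total of 80 cell barcodes occurred in more than 1 library, among them those of 6 lateral plate mesoderm cells.

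The combined label rests on an earlier label with a different name. In the original atlas annotation 2701 of the 2707 cells were extra-embryonic mesoderm (ExE_mesoderm), and these were all the cells of the series with that label. The other cells were 4 of mixed mesoderm and 2 haematoendothelial progenitors, so the original labels did not divide the type. The extended atlas annotation, which has finer labels, called 2205 of the 2707 cells lateral plate mesoderm (81.5%). That label was carried by 79.1%, 83.3%, 83.0% and 80.6% of the cells in the Eomes-KO libraries of 602, 1153, 3346 and 3465 cells. In the WT host libraries of 2414, 3791, 5819 and 8133 cells it was carried by 78.8%, 73.8%, 81.4% and 82.6%. The ranges overlapped, and the shares did not differ by edgeR's quasi-likelihood test (log2 fold change 0.03, adjusted p = 0.71). Most members thus had an extra-embryonic name in one annotation and an embryonic name in the other. In Eomes-KO 81.7% and in WT host 80.2% of members were ExE_mesoderm in the original and lateral plate mesoderm in the extended labels.

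Abundance was compared as the share of epiblast-derived cells, that is all cells outside the visceral, parietal and ExE endoderm and the ExE ectoderm. Lateral plate mesoderm made up 11.1% of them in the Eomes-KO library of 602 cells (67 cells), 20.3% in that of 1153 (233 cells), 24.4% in that of 3346 (816 cells) and 23.2% in that of 3465 (803 cells). In the WT host libraries of 2414, 3791, 5819 and 8133 cells it made up 2.17% (52 cells), 3.96% (149 cells), 3.12% (161 cells) and 5.34% (426 cells). The lowest Eomes-KO library lay above the highest WT host library. It was the most frequent type in 3 of 4 Eomes-KO libraries and ranked 4 in the other, whereas it ranked between 6 and 16 in the WT host libraries.

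The Eomes-KO libraries averaged 19.7% ± 5.99 and the WT host libraries 3.65% ± 1.34 (SD, n = 4 each). The log2 fold change was 2.43 (SE 0.34, edgeR quasi-likelihood test, adjusted p = 1.5e-05). Of the 33 types tested 69.7% passed the threshold of 0.05 in either direction and 21.2% passed it as higher in Eomes-KO, so a call on its own did not set the type apart. Shares sum to a whole, so the loss of some types pushes the others up. With only posterior mesoderm types and allantois as the denominator, the log2 fold change was 0.48 and did not pass (edgeR, adjusted p = 0.089). This denominator held caudal, somitic, intermediate and lateral plate mesoderm and allantois. All but somitic mesoderm were themselves called higher in Eomes-KO, so a small value was largely built in. When the denominator was limited to types not lower in Eomes-KO, a choice made after the data were seen, the log2 fold change was 1.12 (edgeR, adjusted p = 0.00029).

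**Figure D1:**
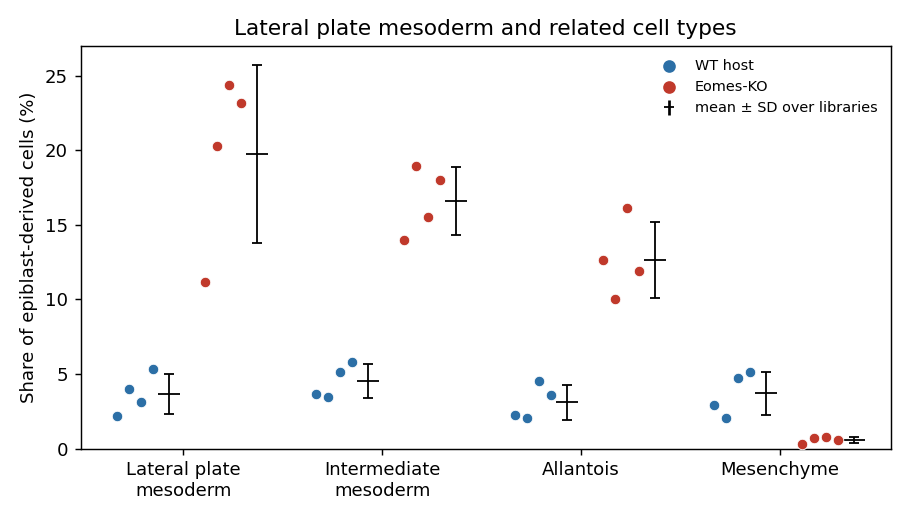
Share of epiblast-derived cells (%, vertical axis) that were lateral plate mesoderm, intermediate mesoderm, allantois or mesenchyme, with 1 point per library (WT host blue, Eomes-KO red) and the mean ± SD over 4 libraries as black bars. Lateral plate mesoderm sits between 2.17% and 5.34% in WT host and between 11.1% and 24.4% in Eomes-KO libraries, and mesenchyme is the only one of the 4 types with the red points below the blue.

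Its neighbours in the embryo, intermediate mesoderm and allantois, were also higher in Eomes-KO cells. Intermediate mesoderm took 13.98% to 19.0% of epiblast-derived cells in Eomes-KO and 3.43% to 5.83% in WT host libraries (log2 fold change 1.88, SE 0.28, edgeR adjusted p = 2.7e-05). Allantois, the source of umbilical vessels and of fetal vessels of the placenta, took 10.0% to 16.1% against 2.02% to 4.56% (log2 fold change 2.02, SE 0.33, edgeR adjusted p = 6.8e-05). Mesenchyme was lower, at 0.333% to 0.777% in Eomes-KO and 2.08% to 5.11% in WT host libraries (log2 fold change −2.59, SE 0.44, edgeR adjusted p = 8.0e-05).

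Ratios of cell numbers within a library do not depend on the remaining types. The log2 ratio of lateral plate to intermediate mesoderm was −0.32, 0.10, 0.65 and 0.37 in the Eomes-KO libraries of 602, 1153, 3346 and 3465 cells. In the WT host libraries of 2414, 3791, 5819 and 8133 cells it was −0.75, 0.21, −0.71 and −0.13. These values overlapped, and the difference of the means was 0.54 (exact permutation test, two-sided, p = 0.17, adjusted p = 0.26 over 3 ratios). The log2 ratio to allantois averaged 0.60 ± 0.55 in Eomes-KO and 0.24 ± 0.67 in WT host libraries (SD, n = 4 each), which overlapped as well (exact permutation test, adjusted p = 0.46). The ratio to mesenchyme did not overlap between genotypes. It lay between 4.75 and 5.36 in Eomes-KO and between −0.60 and 0.93 in WT host libraries, a mean difference of 4.97 on the log2 scale. The exact p was 0.029, the smallest that 4 against 4 libraries allow, and the adjusted p over 3 ratios of 0.086 could not have been below 0.05 for a single ratio. The ratio to mesenchyme thus separated the genotypes, and the ratios to intermediate mesoderm and allantois did not. Mesenchyme itself was lower in Eomes-KO, and intermediate mesoderm and allantois were higher without overlap. A separation from mesenchyme is therefore not particular to lateral plate mesoderm.

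The boundary with mesenchyme also differed between annotations. In the extended annotation 2507 cells were lateral plate mesoderm, of which the combined annotation kept 2205. Of the 1647 Eomes-KO cells with the extended label, 42 were mesenchyme in the combined annotation and 28 intermediate mesoderm, against 198 and 20 of 860 WT host cells. By library, 3.51%, 2.40%, 3.50% and 1.50% of the extended lateral plate cells were mesenchyme in the Eomes-KO libraries of 602, 1153, 3346 and 3465 cells. The corresponding shares were 26.3%, 15.3%, 26.5% and 23.5% in the WT host libraries of 2414, 3791, 5819 and 8133 cells. The groups did not overlap (2.73% ± 0.971 against 22.9% ± 5.23, SD, n = 4 each, exact permutation test, two-sided, p = 0.029). Combined mesenchyme was itself scarcer in Eomes-KO, with 55 cells against 800 in WT host libraries. Of these, 42 Eomes-KO and 198 WT host cells had the extended lateral plate label, a larger part in Eomes-KO. The order of the genotypes thus depends on which type is the denominator. With extended labels throughout, the log2 fold change of lateral plate mesoderm was 2.12 (edgeR, adjusted p = 9.4e-05).

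Cells of the type that carried another extended label were next compared as shares of the lateral plate mesoderm cells of each library. With at least 10 member cells required, 7 labels were tested, the lateral plate label itself among them. Of these 71.4% passed, 1 higher and 4 lower in Eomes-KO. Such shares also sum to a whole, and the type itself was larger in Eomes-KO. A lower share of the type is therefore not a lower share of epiblast-derived cells. Cells that resembled allantois were the part that was higher. In the Eomes-KO libraries of 602, 1153, 3346 and 3465 cells they were 13.4%, 7.30%, 8.46% and 8.97% of lateral plate mesoderm (9, 17, 69 and 72 cells). The WT host libraries of 2414, 3791, 5819 and 8133 cells had 0%, 2.01%, 4.35% and 2.35% (0, 3, 7 and 10 cells). A count of 0 of 52 cells allows a share of up to 5.77%, for counting error only. All Eomes-KO libraries lay above all WT host libraries, with a log2 fold change of 1.76 (SE 0.33, edgeR adjusted p = 2.8e-05).

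The allantois label was found up to E8.25 only. At E8.25 it was carried by 115 of 780 Eomes-KO lateral plate mesoderm cells (14.7%) and by 9 of 283 WT host cells (3.18%), and at E8.0 by 48 of 537 (8.94%) and 8 of 177 (4.52%). At E7.75 the order was the other way round on few cells, 4 of 37 (10.8%) and 3 of 11 (27.3%). None of the 556 Eomes-KO and 312 WT host cells mapped to E8.5 had it. Seen from the other side, 12.4% ± 1.91 (SD, n = 4) of the cells with the extended allantois label lay in combined lateral plate mesoderm in Eomes-KO libraries. In WT host libraries that share was 2.48% ± 1.69 (SD, n = 4). The range was 10.6% to 14.9% against 0% to 3.75%. Kidney primordium and limb mesoderm, which were lower within the type, were viewed in the same way. The share was level for kidney primordium. For limb mesoderm its mean was higher in Eomes-KO, on few cells and with overlapping libraries. Among cells with the extended kidney primordium label, 14 of 30 from Eomes-KO and 31 of 83 from WT host libraries lay in lateral plate mesoderm (36.7% ± 24.9 and 35.7% ± 6.15, SD, n = 4 each), and among those with the limb mesoderm label 12 of 32 and 14 of 133 (43.3% ± 43.0 and 10.99% ± 4.27, SD, n = 4 each).

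Kidney primordium, the finer label for early nephric cells, was lower as a share of the type. It was carried by 0, 1, 6 and 7 lateral plate mesoderm cells in the Eomes-KO libraries of 602, 1153, 3346 and 3465 cells, or 0%, 0.429%, 0.735% and 0.872%. The WT host libraries of 2414, 3791, 5819 and 8133 cells had 2, 9, 4 and 16 such cells, or 3.85%, 6.04%, 2.48% and 3.76%. The groups did not overlap (log2 fold change −2.38, SE 0.51, edgeR adjusted p = 0.00011). Set against all epiblast-derived cells, these members were 14 of 8561 in Eomes-KO and 31 of 19284 in WT host libraries. That comparison was not tested. In the Eomes-KO library of 602 cells the count of 0 of 67 allows a share of up to 4.48%, which reaches into the WT host range. All 14 Eomes-KO cells were mapped to E8.5, whereas 14 of the 31 WT host cells were mapped to E8.25 and 17 to E8.5. The label had low support, with a mean extended score of 0.514 in the Eomes-KO and 0.462 in the WT host cells. Among cells with an extended score of at least 0.5 the log2 fold change was −1.20 and did not pass (edgeR, adjusted p = 0.24).

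Limb mesoderm and paraxial mesoderm were carried by few cells. Limb mesoderm was the label of 12 Eomes-KO and 14 WT host cells (log2 fold change −1.46, SE 0.61, edgeR adjusted p = 0.030). Paraxial mesoderm, the source of somites and head muscle, was the label of 7 and 10 cells (log2 fold change −1.70, SE 0.70, edgeR adjusted p = 0.030). For both labels the libraries overlapped, and both calls were lost under TMM scaling (log2 fold changes −1.41 and −1.64, edgeR adjusted p = 0.051 each). With a doublet score under 0.25 limb mesoderm was at −1.53 (edgeR, adjusted p = 0.073) and paraxial mesoderm at −0.81 (edgeR, adjusted p = 0.40), and with at least 10000 UMIs limb mesoderm was at −1.20 (edgeR, adjusted p = 0.32). With an extended score of at least 0.5 paraxial mesoderm was at −1.78 (edgeR, adjusted p = 0.20). The limb mesoderm call was also lost without the Eomes-KO library of 1153 cells (log2 fold change −1.42), without that of 3465 cells (−1.10) and without the WT host library of 3791 cells (−0.97). The paraxial call was lost without the Eomes-KO library of 1153 cells (−1.74) or 3346 cells (−1.40) and without the WT host library of 5819 cells (−1.31) or 8133 cells (−1.81). The edgeR adjusted p without these libraries ran from 0.052 to 0.21. The limb mesoderm call held, with larger values, without the Eomes-KO library of 3346 cells (−2.16) and without the WT host library of 8133 cells (−2.08). Mesenchyme was the extended label of 1 of 1919 Eomes-KO and 9 of 788 WT host members. By library its log2 fold change was −3.73 (SE 0.92, edgeR adjusted p = 0.00047), on these few cells. Pooled over libraries, the ratio of WT host to Eomes-KO shares was 21.9, with an exact 95% counting interval of 3.04 to 961. That interval leaves out the spread between libraries and is no test of genotype. The label was too rare to be fitted in most alternatives. Mesenchyme-labelled members were found in all 4 WT host libraries and in 1 Eomes-KO library.

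Presomitic mesoderm, the tissue that segments into somites, was the most frequent other label. It was carried by 139 Eomes-KO and 61 WT host cells, a mean of 7.38% ± 0.991 and 8.74% ± 3.79 (SD, n = 4 each), and did not pass (log2 fold change −0.10, SE 0.25, edgeR adjusted p = 0.71). A further 17 members had labels with fewer than 10 cells each, namely 9 embryo proper endothelium, 4 embryo proper mesothelium and 4 pharyngeal mesoderm.

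**Figure D2:**
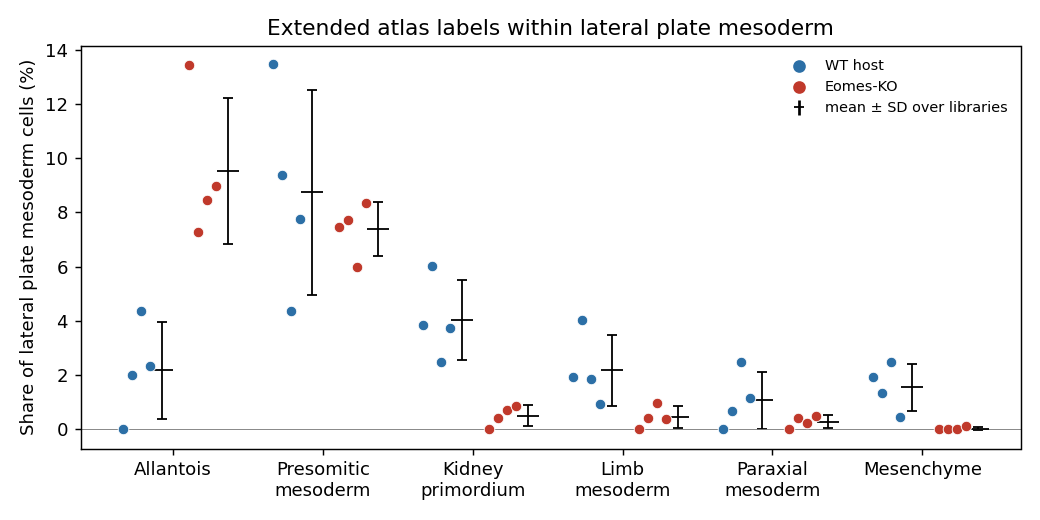
Share of each library's lateral plate mesoderm cells (%, vertical axis) with an extended atlas label other than lateral plate mesoderm, with 1 point per library (WT host blue, Eomes-KO red) and the mean ± SD over 4 libraries as black bars. Allantois is at 7.30% to 13.4% in Eomes-KO and 0% to 4.35% in WT host libraries, kidney primordium at 0% to 0.872% and 2.48% to 6.04%, and presomitic mesoderm overlaps.

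Positions on the atlas were compared as a description. Each cell took the position of its nearest atlas cell on the atlas UMAP, a map on which distances have no unit. The median position on the first axis was −2.68, −2.41, −2.18 and −2.31 in the Eomes-KO libraries of 602, 1153, 3346 and 3465 cells, and −1.24, −1.21, −2.21 and −1.60 in the WT host libraries of 2414, 3791, 5819 and 8133 cells. Low values are the side of the allantois-labelled cells, whose mean position was −4.37 for the Eomes-KO and −3.94 for the WT host genotype. The WT host library of 5819 cells reached into the Eomes-KO range. The 1919 Eomes-KO cells had 935 different nearest atlas cells and the 788 WT host cells had 605, and 273 atlas cells were nearest to cells of both genotypes. That is 29.2% of the atlas cells used by Eomes-KO and 45.1% of those used by WT host cells. Both shares have the same 273 atlas cells on top, so they differ only by how many atlas cells each genotype used. Equal numbers of cells were not compared.

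**Figure D3:**
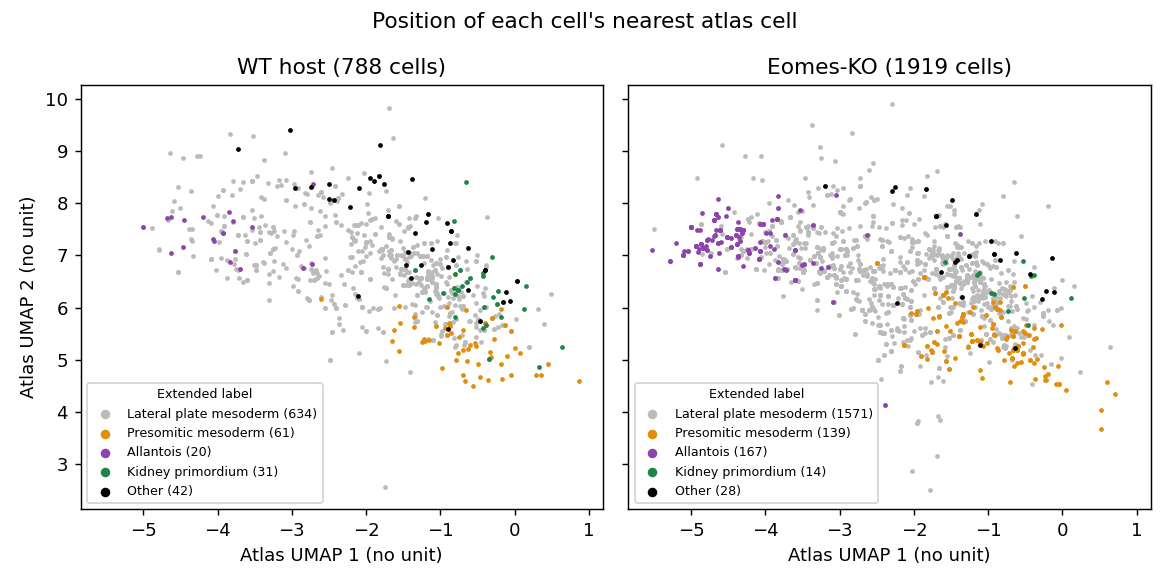
Atlas UMAP position (axes 1 and 2, no unit) of the nearest atlas cell of each lateral plate mesoderm cell, for 788 WT host (left) and 1919 Eomes-KO cells (right), coloured by extended label with the number of cells in brackets; cells with the same atlas cell overlap. The 167 Eomes-KO cells labelled allantois lie mostly at the left edge, as do the 20 WT host cells with that label, and cells labelled lateral plate mesoderm spread over most of the area in both panels.

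Mapped stage is the atlas stage given to a cell by its nearest atlas cells, from E7.5 to E8.5. Lateral plate mesoderm of both genotypes was mapped mainly to E8.0, E8.25 and E8.5, with 537, 780 and 556 Eomes-KO and 177, 283 and 312 WT host cells. E7.75 took 37 and 11 cells, and E7.5 took 9 and 5. The latest stage, E8.5, took 20.9%, 22.3%, 36.5% and 23.9% of the cells in the Eomes-KO libraries of 602, 1153, 3346 and 3465 cells. It took 36.5%, 50.3%, 25.5% and 41.5% in the WT host libraries of 2414, 3791, 5819 and 8133 cells. The values overlapped. The WT host library of 5819 cells was mapped early, with 39.8% of its cells at E8.0 against 8.72% to 22.3% in the other WT host libraries. The mean share at E8.5 was 25.9% ± 7.18 in Eomes-KO and 38.5% ± 10.4 in WT host libraries (SD, n = 4 each, exact permutation test, two-sided, p = 0.057).

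As a mean over cells the mapped stage was 8.22 ± 0.043 days in Eomes-KO and 8.29 ± 0.065 days in WT host libraries (SD, n = 4 each). The difference, −0.07 days, did not pass (exact permutation test, two-sided, p = 0.11). In every library of both genotypes lateral plate mesoderm was mapped later than the other epiblast-derived cells. The lead was 0.0768 ± 0.0273 days in Eomes-KO and 0.066 ± 0.0475 days in WT host libraries (SD, n = 4 each) and did not differ between genotypes beyond the spread (exact permutation test, adjusted p = 0.74 over 8 measures).

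The share of lateral plate mesoderm was higher in Eomes-KO libraries within each of the later stages. Among epiblast-derived cells mapped to E8.0 it was 10.1% to 20.3% in Eomes-KO and 0.988% to 4.99% in WT host libraries. Among those mapped to E8.25 it was 14.97% to 28.8% and 2.43% to 4.73%. At E8.5 it was 11.02%, 35.4%, 38.2% and 37.4% in the Eomes-KO libraries of 602, 1153, 3346 and 3465 cells and 3.56% to 7.36% in WT host libraries. The Eomes-KO library of 602 cells was low at E8.5, where it held 14 lateral plate mesoderm cells of 127. At E7.75 the shares were 2.70% to 10.7% and 0% to 1.40%, and the few cells at E7.5 were not compared. No overlap was seen at E7.75, E8.0, E8.25 or E8.5.

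**Figure D4:**
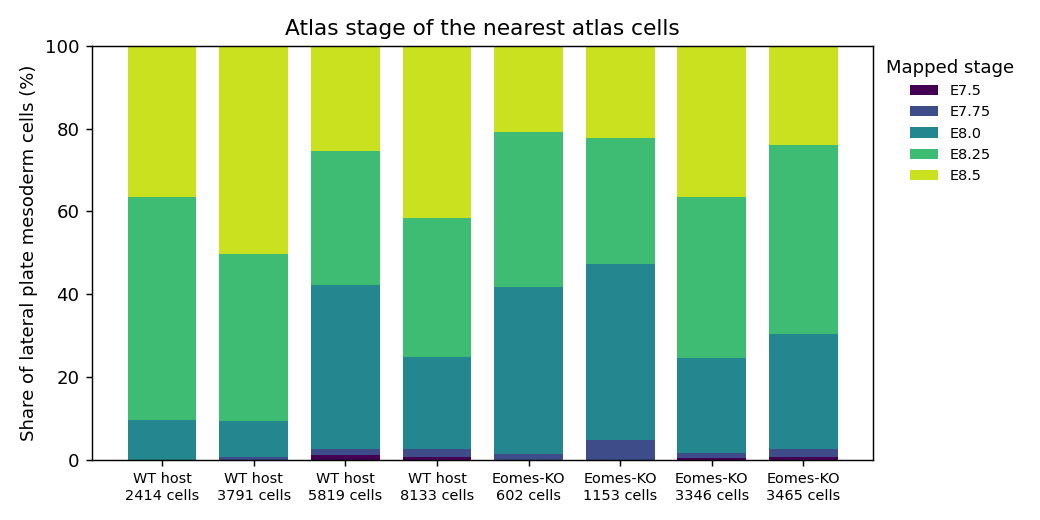
Share of lateral plate mesoderm cells (%, vertical axis) mapped to each atlas stage, as 1 stacked bar per library, named by genotype and number of cells. The E8.5 segment is 25.5% to 50.3% in WT host and 20.9% to 36.5% in Eomes-KO libraries, and the WT host library of 5819 cells has an E8.0 segment of 39.8%.

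Label scores measure how uniform the atlas neighbourhood of a cell was, as the fraction of its 15 nearest atlas cells that carry the label it was given. The original label score averaged 0.827, 0.825, 0.854 and 0.819 in the Eomes-KO libraries of 602, 1153, 3346 and 3465 cells. In the WT host libraries of 2414, 3791, 5819 and 8133 cells it averaged 0.817, 0.838, 0.817 and 0.826. These overlapped (exact permutation test, adjusted p = 0.51 over 3 scores). The extended label score was 0.803, 0.792, 0.798 and 0.772 against 0.764, 0.708, 0.761 and 0.736 in the same order of libraries. The groups did not overlap and the means differed by 0.0488, with an exact permutation p of 0.029 and an adjusted p of 0.086 over 3 scores. Over 3 scores a single score could not have passed after adjustment. Other cells showed a gap in the same direction, with 0.813 ± 0.0182 and 0.792 ± 0.0193 in all other epiblast-derived cells and 0.79 ± 0.0101 and 0.726 ± 0.0433 in intermediate mesoderm (SD, n = 4 each). Relative to the other epiblast-derived cells of the library, the extended score of lateral plate mesoderm differed by −0.0218 ± 0.0196 in Eomes-KO and by −0.05 ± 0.0297 in WT host libraries (SD, n = 4 each), which overlapped (exact permutation test, adjusted p = 0.34 over 8 measures).

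Weakly supported cells were counted as well. Extended scores under 0.5 were found for 0%, 5.15%, 4.53% and 5.73% of lateral plate mesoderm cells in the Eomes-KO libraries of 602, 1153, 3346 and 3465 cells. They were found for 13.5%, 20.8%, 11.2% and 13.8% in the WT host libraries of 2414, 3791, 5819 and 8133 cells, with no overlap between genotypes. At the other end, all 15 neighbours agreed on the extended label for 19.1% ± 3.78 and 16.3% ± 3.28 of cells (SD, n = 4 each). The stage score was the lowest of the 3 and averaged 0.579 ± 0.00829 in Eomes-KO and 0.614 ± 0.0306 in WT host libraries (SD, n = 4 each, exact permutation test, adjusted p = 0.086). Other cells showed a gap in the same direction, 0.575 and 0.628 in all other epiblast-derived cells and 0.599 and 0.617 in intermediate mesoderm. Relative to the other epiblast-derived cells of the library, the genotypes differed by 0.0173, the opposite sign (exact permutation test, adjusted p = 0.23 over 8 measures).

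**Figure D5:**
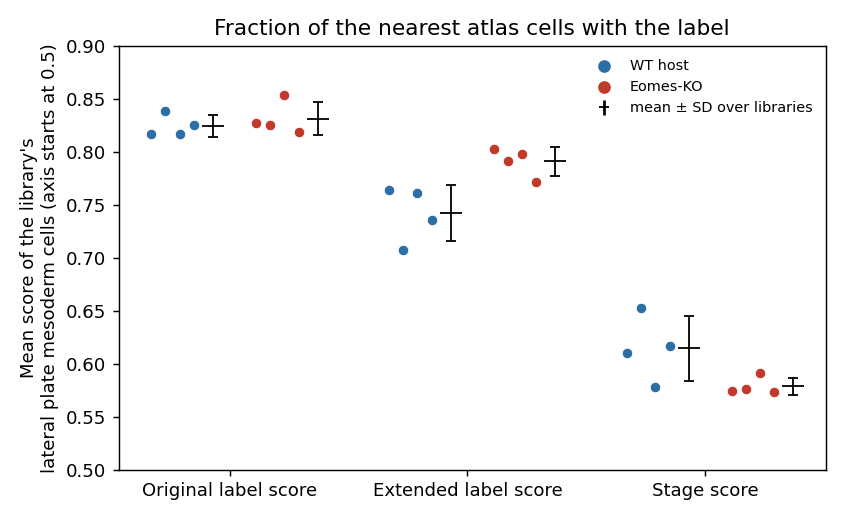
Mean original label, extended label and stage score of the lateral plate mesoderm cells of each library (vertical axis, a fraction of the nearest atlas cells, drawn from 0.5), with 1 point per library (WT host blue, Eomes-KO red) and the mean ± SD over 4 libraries as black bars. The extended label score is 0.772 to 0.803 in Eomes-KO and 0.708 to 0.764 in WT host libraries, and the original label score overlaps.

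The original label score was also set against that of the other epiblast-derived cells of the library. Lateral plate mesoderm was lower in every WT host library, with differences of −0.0494, −0.0407, −0.0513 and −0.0359 in those of 2414, 3791, 5819 and 8133 cells. In the Eomes-KO libraries of 602, 1153, 3346 and 3465 cells the differences were −0.0158, −0.00078, 0.0293 and −0.0122. The groups did not overlap (difference 0.0445, exact permutation p = 0.029, adjusted p = 0.23 over 8 measures). Over 8 measures a single measure could not have passed after adjustment. The other cells themselves scored 0.831 ± 0.00819 in Eomes-KO and 0.869 ± 0.00754 in WT host libraries (SD, n = 4 each). Lateral plate mesoderm scored 0.831 ± 0.0154 and 0.824 ± 0.0103 (SD, n = 4 each). Against intermediate mesoderm alone the difference had the opposite sign, −0.0305.

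Depth per cell was above every WT host library in 3 of 4 Eomes-KO libraries. Median UMIs per lateral plate mesoderm cell were 29514, 17952, 16651 and 9106 in the Eomes-KO libraries of 602, 1153, 3346 and 3465 cells. They were 7920, 10043, 11141 and 4929 in the WT host libraries of 2414, 3791, 5819 and 8133 cells. The Eomes-KO library of 3465 cells lay within the WT host range, and the difference did not pass (exact permutation test, two-sided, p = 0.086, and adjusted p = 0.14 over 5 such measures). Over 5 measures a single measure could not have passed after adjustment. Other epiblast-derived cells had a like gap, and the log2 difference between lateral plate mesoderm and those cells was −0.07 ± 0.09 in Eomes-KO and −0.05 ± 0.06 in WT host libraries (SD, n = 4 each, exact permutation test, adjusted p = 0.74). Among cells with at least 10000 UMIs the log2 fold change in abundance was 2.69 (edgeR, adjusted p = 2.3e-07), that of the allantois label was 2.06 (edgeR, adjusted p = 0.0014) and that of kidney primordium was −2.76 (edgeR, adjusted p = 0.0017).

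Other quality measures overlapped. Median genes per cell were 4096 ± 987 in Eomes-KO and 2755 ± 550 in WT host libraries (SD, n = 4 each, exact permutation test, adjusted p = 0.14). Mitochondrial transcripts took a median 1.58% ± 0.301 and 1.67% ± 0.234 of UMIs (exact permutation test, adjusted p = 0.66), and ribosomal transcripts 26.0% ± 0.976 and 25.0% ± 0.65 (exact permutation test, adjusted p = 0.21). The ribosomal share was below that of the other epiblast-derived cells in all 8 libraries, with mean differences of −0.728 ± 0.255 and −0.838 ± 0.513 percentage points (SD, n = 4 each). The median doublet score was 0.32, 0.26, 0.27 and 0.22 in the Eomes-KO libraries of 602, 1153, 3346 and 3465 cells and 0.185, 0.22, 0.2 and 0.21 in the WT host libraries of 2414, 3791, 5819 and 8133 cells (exact permutation test, adjusted p = 0.14). It was above that of the other epiblast-derived cells in 7 of 8 libraries and equal in the other. Among cells with a doublet score under 0.25 the log2 fold change in abundance was 2.20 (edgeR, adjusted p = 7.0e-06).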

How the data were processed

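Reads were counted by the authors with Cell Ranger 6.0.1 against mm10 plus the tdTomato gene, and the deposited count of UMIs and of genes is a raw total per cell. Each cell further has a deposited mitochondrial and ribosomal percent of UMIs, a deposited doublet score (cells above 0.5 had been removed), and, from mapping each library to atlas cells of E7.5 to E8.5, labels, each with a deposited score that is the fraction of 15 nearest atlas cells sharing it. A library has the genotype that the tdTomato status of its cells gives. Its name does not give the embryo pool, which the study's model includes, so genotype was the only term. The table holds fewer cells than the study describes.

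Sums of cells per library were fitted in edgeR 4.0.16 (glmQLFit, glmQLFTest; R 4.3.3) for types or labels with 10 or more cells, at a Benjamini-Hochberg threshold of 0.05. A standard error is the log2 fold change over the root of F. Values per library, from libraries with at least 20 member cells, went into exact permutation tests (scipy 1.17.1, 70 arrangements). The smallest p of 4 against 4 libraries is 0.029, so after adjustment over 3, 5 or 8 measures a single measure cannot pass. Log2 ratios have 0.5 added to each number. Intervals are exact (Clopper-Pearson, 95%) and, like the limits from 3 cells, cover counting error only. The edgeR test was tried on simulated cell numbers in which a minority of types or labels rose. In the data most types were called, and most of these were lower, a setting that the simulation does not cover. DESeq2 1.42.0, limma 3.58.1, TMM and other denominators, filters and summaries were alternatives.

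The members, lists and tests were chosen with earlier results of these data known. All original and extended labels with at least 10 member cells, all stages and the 3 related types are named. The planned test of original labels could not be run, because only 1 label had 10 member cells.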

Additional observations from a re-analysis of the deposited data

Results flagged for a closer look

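In 6 of the 106 groups of 4 libraries examined 1 library stood apart by Dixon's gap ratio, and chance gives about 1 in 20. The mean stage score of lateral plate mesoderm was 0.591 in the Eomes-KO library of 3346 cells, above the other Eomes-KO libraries. Relative to other cells the stage score was −0.00527 in the Eomes-KO library of 602 cells and above 0 in the other Eomes-KO libraries. Mesenchyme was the extended label of 0.125% of lateral plate mesoderm cells in the Eomes-KO library of 3465 cells, which is 1 cell, and of 0 cells in the other Eomes-KO libraries. Among cells mapped to E8.5 lateral plate mesoderm took 11.02% in the Eomes-KO library of 602 cells, the lowest of the group. All 15 neighbours agreed on the extended label for 21.2% of the cells in the WT host library of 2414 cells, the highest of the group. A stage score under 0.5 was found for 12.1% of the cells in the WT host library of 3791 cells, the lowest of the group. The causes were not tested.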

How the results depend on the processing

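The higher abundance of lateral plate mesoderm kept its direction under all 20 alternatives and passed in 19, with log2 fold changes of 2.26 to 2.68 without each library in turn. The exception was the denominator of posterior mesoderm and allantois (0.48, edgeR adjusted p = 0.089). TMM, DESeq2 with ratio and DESeq2 with poscounts size factors moved the log2 fold changes of all types by a median of −0.14, −0.91 and 0.60. They gave 2.29, 1.43 and 3.02 for lateral plate mesoderm. Its distance above the median type was 4.30 to 4.34, and 4.38 without scaling. Such scaling shifts all types of a library together, so this distance could hardly change and is no separate support. The number of types called was 23, against 51 with extended labels, 11 with only types not lower as denominator, 1 with the posterior denominator and 22 to 25 without each library. The number of extended labels called within the type was 5, against 3 with TMM, 2 with at least 10000 UMIs, 2 with a doublet score under 0.25, 1 with an extended score of at least 0.5, and 3 to 5 without each library (3 without the Eomes-KO library of 1153 or 3465 cells or the WT host library of 3791, 5819 or 8133 cells). Exact permutation of the shares called 0, with 3 at an unadjusted p under 0.05, and over 7 labels a single label could not pass. The allantois call held in 13 of 14 alternatives and the kidney primordium call in 12 of 14. The log2 fold change of the extended lateral plate label was −0.061 with an extended score of at least 0.5 and −0.0022 to 0.072 without each library, and that of presomitic mesoderm was 0.23 with at least 10000 UMIs, 0.088 with that score and −0.26 to 0.075 without each library. The ratio to allantois differed by −0.12 with at least 10000 UMIs, −0.28 with a doublet score under 0.25 and 0.10 to 0.62 without each library. The original label score differed by −0.0079 with a doublet score under 0.25 and −0.00047 to 0.012 without each library. The median mitochondrial percent differed by −0.224 to 0.013 without each library. Against intermediate mesoderm in place of all other cells, the genotypes differed by −0.030 in original, −0.015 in extended and −0.017 in stage score, −0.017 days in mapped stage, 0.0025 points in mitochondrial and −0.735 in ribosomal percent. With a doublet score under 0.25 the last 2 were 0.05 and −0.097 against all other cells. Without each library, differences against other cells ran from −0.0052 to 0.032 days in mapped stage, −0.065 to 0.0054 in log2 UMIs, −0.13 to 0.021 in mitochondrial and −0.083 to 0.27 in ribosomal percent. The causes were not tested. Exact permutation tests without 1 library cannot go below p = 0.057. The embryo pool could not be a term. No paired analysis was possible because the library names carry no replicate number or pool. The libraries of 52 and 67 member cells limit what can be said of rare labels.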
